A study of Homo sapiens with 6 samples.

Results

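The 10 genes described here encode neuropeptide precursors or granins, cargo proteins of secretory granules, and were followed in H9 human embryonic stem cells given an oligonucleotide against the transposable element LINE1 (L1). The genes were TAC1, VGF, NMU, GAL, NTS, SCG2, SCG3, SCG5, CHGA and CHGB. They were taken by symbol from the table of raw counts per gene, where all 10 of 10 symbols were found among 53715 genes. The genes were chosen by symbol with measured fold changes in these same libraries already known, that of TAC1 in ASO-L1 against sO-L1 among them. Calls of these genes therefore describe where they lie among all genes tested and are not independent evidence.

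H9 is an established line of primed embryonic stem cells. All cells were transfected with 25 nM of a fluorescein-labelled oligo, and labelled cells were sorted and collected 48 hours later. The groups were ASO-L1, an antisense oligo against L1, sO-L1, a sense oligo also described as L1 targeting, and ASO-Ctr, an antisense oligo with no specific target, with 2 libraries each. Every group, controls included, was given trans-ISRIB at 0.7 uM, a drug that counters signalling by phosphorylated eIF2, emricasan at 5 uM, which inhibits caspases, and the ROCK inhibitor Y-27632 at 10 uM. These were withdrawn after 24 hours. The labels name both mTeSR and RSeT as the medium after transfection, so the medium at collection is uncertain. All libraries come from 1 line and nothing states that replicates are separate cultures, so p-values measure only the spread between these libraries, which may be technical.

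Neuropeptides are made as longer precursors that enter dense-core secretory granules. There, prohormone convertases cut them at pairs of basic residues, carboxypeptidase E trims the ends, and the enzyme PAM amidates many of the products. Granins are acidic proteins that condense in the same granules and help to sort their cargo, and several of them are also cut into peptides. These genes are best known from neurons and endocrine cells, in many of which the repressor REST is absent, while in other cells REST holds many of them down. Several of their promoters carry a cAMP response element (CRE), the site of the CREB and ATF factors.

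The libraries held 18897936 to 67192937 counts, and a count of 0 allows up to 0.0446 to 0.159 CPM (counts per 1000000 counts of the library) at 3 counts, for counting error only. All 10 genes passed the filter on low counts, with 409 counts in all for SCG2, the fewest, and 38905 for CHGA, the most. All 10 markers of human pluripotent cells were well expressed, with summed levels of 7810 to 7889 CPM in ASO-L1, 7929 to 8370 CPM in sO-L1 and 7704 to 8119 CPM in ASO-Ctr, LIN28A being the highest. The sums hide changes of single markers. In ASO-L1 against sO-L1, 3 of the 10 were called higher and 4 lower, where 10.3% and 12.7% of all genes tested were. SOX2 (0.20 ± 0.05 on the log2 scale) was among the higher. NANOG (-0.17 ± 0.05), DNMT3B (-0.22 ± 0.05) and L1TD1 (-0.23 ± 0.05) were among the lower. In ASO-L1 against ASO-Ctr, 1 was called higher and 2 lower, where 9.88% and 11.6% of all genes were. L1TD1 was not called there (-0.06 ± 0.05). In both comparisons 0 were called without the replicate number as a block in the fit. Of 10 markers of neuroendocrine cells only 4 could be tested, and SYP, a synaptic vesicle protein, held most of their sum of 21.2 to 23.8 CPM in ASO-L1, 21.1 to 22.2 CPM in sO-L1 and 22.0 to 24.2 CPM in ASO-Ctr. The lineage factor ISL1 had 10 counts over all 6 libraries. In bulk RNA a change in the number of cells that express a gene and a change in the RNA of each cell cannot be told apart.

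With the antisense L1 oligo, 2 of the precursors stood far above the other groups and the abundant granins stood below them. TAC1 was 4.41-fold and VGF 3.27-fold higher in ASO-L1 than in sO-L1, and GAL was 1.32-fold higher. CHGA, SCG3, SCG5, NTS and NMU were lower, at 0.652 to 0.772 of the sO-L1 level, and CHGB and SCG2 were not called. In ASO-L1 against sO-L1, edgeR called 3 of the 10 higher and 5 lower (adjusted p under 0.05, with the replicate number as a block), while 23.0% of all 19156 genes tested were called, 10.3% higher and 12.7% lower. The median absolute log2 fold change was 0.48 over the 10 genes and 0.16 over all genes tested. Because the genes were listed with results known, nothing is read from these shares.

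**Figure D1:**
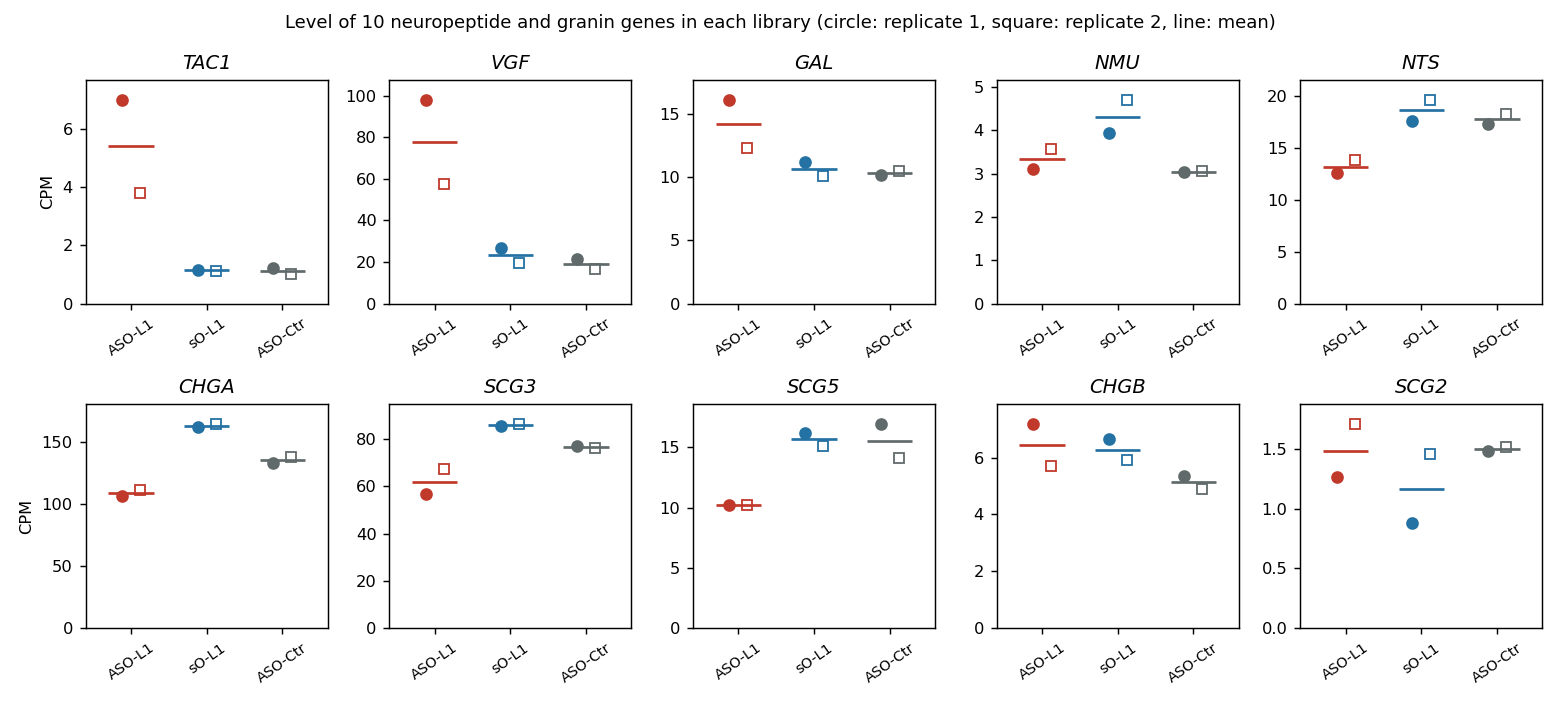
Level of each of the 10 genes in CPM (y axis, from 0) in the 2 libraries of ASO-L1, sO-L1 and ASO-Ctr. Circles are replicate 1, open squares replicate 2 and lines the group means. TAC1 reached 7.0 and 3.82 CPM in ASO-L1 and lay between 1.01 and 1.22 CPM in the other 4 libraries.

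TAC1 encodes preprotachykinin, the precursor of substance P and neurokinin A. It had 319 and 221 counts, or 7.0 and 3.82 CPM, in ASO-L1 replicates 1 and 2, against 1.17 and 1.12 CPM in sO-L1 and 1.22 and 1.01 CPM in ASO-Ctr. Both ASO-L1 libraries lay above all 4 others, and the 2 ASO-L1 libraries also lay well apart from each other. The log2 fold change (± SE) was 2.14 ± 0.18 in ASO-L1 against sO-L1 and 2.17 ± 0.19 in ASO-L1 against ASO-Ctr. These comparisons share the ASO-L1 libraries. Within replicate 1 the level was 5.96 times that of sO-L1, and within replicate 2 it was 3.41 times. In sO-L1 against ASO-Ctr the log2 fold change was 0.03 ± 0.24, with overlapping groups.

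VGF encodes a granin-like precursor that is cut into several bioactive peptides and was first found as a gene induced by nerve growth factor. It had 97.8 and 57.6 CPM in ASO-L1, against 26.7 and 19.7 CPM in sO-L1 and 21.6 and 16.5 CPM in ASO-Ctr. As for TAC1, both ASO-L1 libraries exceeded all others and replicate 1 was the higher. Replicate 1 was the higher in sO-L1 and in ASO-Ctr as well. The log2 fold change was 1.71 ± 0.07 against sO-L1 and 1.97 ± 0.07 against ASO-Ctr. In the fit without the replicate block these were 1.75 ± 0.24 and 2.05 ± 0.25, a wider spread. Within replicates 1 and 2 the level was 3.66 and 2.92 times that of sO-L1, and 4.53 and 3.49 times that of ASO-Ctr. VGF ranked 7 and 3 from the top among 12883 genes with a mean log2 CPM of at least 1. VGF was 0.26 ± 0.08 higher on the log2 scale in sO-L1 than in ASO-Ctr, with overlapping groups, which was not called (adjusted p = 0.0616 with edgeR). In 10 of 16 alternatives it was not called either, among them DESeq2 (adjusted p = 0.159), limma-voom (0.172) and no replicate block. It was called there with the 4 libraries of the 2 groups alone (adjusted p = 0.0122), without filter on low counts (0.0211) and without ASO-L1 replicate 1, ASO-L1 replicate 2 or ASO-Ctr replicate 2 (0.00823, 0.00570 and 0.00549).

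TAC1 and VGF had the largest increases of the 10, so the 250 bases before their RefSeq starts are shown (build GRCh38.p14, 5′ to 3′ on the gene's strand). The counts were made on hg19, so these windows locate the promoters and not the reads. Capitals mark the CRE TGACGTCA, its half-site TGACG and the TATA box TATAAA, searched on both strands. In all, 10 motifs were searched, and those shown were picked with their matches seen, so they are a description only. The half-site lies within the CRE, so each CRE also counts as half-sites. The TAC1 window is chr7:97731836-97732085, plus strand, and the VGF window is chr7:101165570-101165819, minus strand.
TAC1: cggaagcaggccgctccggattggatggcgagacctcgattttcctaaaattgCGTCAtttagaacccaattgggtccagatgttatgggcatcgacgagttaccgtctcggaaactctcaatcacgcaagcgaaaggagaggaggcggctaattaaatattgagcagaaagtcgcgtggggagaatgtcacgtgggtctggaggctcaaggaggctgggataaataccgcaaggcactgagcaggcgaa
VGF: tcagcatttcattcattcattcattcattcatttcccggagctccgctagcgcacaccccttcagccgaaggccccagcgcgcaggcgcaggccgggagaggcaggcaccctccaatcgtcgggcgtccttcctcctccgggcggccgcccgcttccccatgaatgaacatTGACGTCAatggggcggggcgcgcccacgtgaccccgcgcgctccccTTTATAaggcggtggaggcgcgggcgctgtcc
TAC1 has a half-site on the opposite strand that starts 197 bases before the start. VGF has a full CRE that starts 79 bases before it, and the letters of the TATA box on the opposite strand at 32 bases. The CRE was found in 1.65% of 35116 RefSeq windows of this length, the half-site in 21.2% and the exact letters TATAAA in 10.7%.

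GAL encodes galanin, which is also known from undifferentiated human embryonic stem cells. It had 16.1 and 12.3 CPM in ASO-L1, against 11.2 and 10.1 CPM in sO-L1 and 10.2 and 10.5 CPM in ASO-Ctr. Both ASO-L1 libraries were the highest, the second by a small margin. GAL rose by 0.40 ± 0.09 on the log2 scale in each ASO-L1 comparison. Single libraries moved this value. Without ASO-L1 replicate 1 it was 0.25 against sO-L1 and 0.26 against ASO-Ctr, neither called (adjusted p = 0.167 and 0.113), and without ASO-L1 replicate 2 it was 0.56 and 0.58. Against ASO-Ctr it was 0.28 without ASO-Ctr replicate 1, not called (adjusted p = 0.0751), and 0.60 without ASO-Ctr replicate 2. Against sO-L1 the call was also lost without sO-L1 replicate 1 (0.37, adjusted p = 0.0673). In these fits the remaining library takes its spread from the others. Both calls were lost without the replicate block (adjusted p = 0.183 and 0.156). In sO-L1 against ASO-Ctr the log2 fold change was 0.00 ± 0.10.

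NTS encodes neurotensin. It had 12.6 and 13.8 CPM in ASO-L1, against 17.6 and 19.6 CPM in sO-L1 and 17.3 and 18.3 CPM in ASO-Ctr. Both ASO-L1 libraries were the lowest, and sO-L1 and ASO-Ctr overlapped. NTS fell by 0.50 ± 0.08 on the log2 scale against sO-L1 and by 0.42 ± 0.08 against ASO-Ctr. Without the replicate block the calls were lost (adjusted p = 0.0508 and 0.0771). The log2 fold change was 0.07 ± 0.08 in sO-L1 against ASO-Ctr.

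NMU encodes neuromedin U, a peptide of smooth muscle contraction and feeding control. It had 3.11 and 3.58 CPM in ASO-L1, 3.93 and 4.70 CPM in sO-L1 and 3.03 and 3.06 CPM in ASO-Ctr. Here the sense oligo group was the one that stood apart, with both sO-L1 libraries above the other 4. NMU was 0.54 ± 0.15 higher on the log2 scale in sO-L1 than in ASO-Ctr and 0.37 ± 0.14 lower in ASO-L1 than in sO-L1 (log2 fold change -0.37), both called, while ASO-L1 against ASO-Ctr gave 0.17 ± 0.15 (adjusted p = 0.480). The call in ASO-L1 against sO-L1 was lost in 8 of 16 alternatives, among them DESeq2 (adjusted p = 0.276), limma-voom and no filter on low counts (0.0738 each), no replicate block (0.298) and each ASO-L1 or sO-L1 library left out (0.151 to 0.403). That in sO-L1 against ASO-Ctr was lost in 6 alternatives, among them limma-voom (adjusted p = 0.112) and each sO-L1 or ASO-Ctr library left out (0.0668 to 0.507).

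CHGA encodes chromogranin A, the best known granin and a clinical marker of neuroendocrine cells. It had 106 and 111 CPM in ASO-L1, against 162 and 164 CPM in sO-L1 and 133 and 138 CPM in ASO-Ctr. The 3 groups did not overlap, with ASO-Ctr between the L1 oligos. CHGA fell by 0.58 ± 0.05 on the log2 scale in ASO-L1 against sO-L1 and by 0.31 ± 0.05 against ASO-Ctr, and it rose by 0.27 ± 0.05 in sO-L1 against ASO-Ctr (adjusted p = 8.1e-04 with edgeR). The lower level in ASO-L1 than in ASO-Ctr was not called without the replicate block (adjusted p = 0.0551). The call in sO-L1 against ASO-Ctr was lost without sO-L1 replicate 1 (adjusted p = 0.169) and without the replicate block, where none of the 19156 genes was called.

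SCG3 encodes secretogranin III, which binds CHGA and helps to anchor it to the granule membrane. It had 56.9 and 67.3 CPM in ASO-L1, against 85.8 and 86.3 CPM in sO-L1 and 77.0 and 76.2 CPM in ASO-Ctr. The order of the groups was that of CHGA, again without overlap. SCG3 fell by 0.47 ± 0.05 on the log2 scale against sO-L1 and by 0.30 ± 0.06 against ASO-Ctr, and it was 0.17 ± 0.06 higher in sO-L1 than in ASO-Ctr, which was not called (adjusted p = 0.102). Without ASO-L1 replicate 1 the fall against ASO-Ctr was not called (log2 fold change -0.18, adjusted p = 0.0527), nor without the replicate block (0.128). In sO-L1 against ASO-Ctr it was called with the 4 libraries of the 2 groups alone (adjusted p = 0.0362), after thinning to the total count of the shallowest library (0.0184) and without either ASO-L1 library (0.0462 and 0.0443).

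SCG5 encodes 7B2, the chaperone of the convertase PCSK2. It had 10.2 CPM in both ASO-L1 libraries, against 16.2 and 15.1 CPM in sO-L1 and 16.9 and 14.1 CPM in ASO-Ctr. The ASO-L1 libraries lay below all others, which overlapped. SCG5 fell by 0.62 ± 0.09 on the log2 scale against sO-L1 and by 0.58 ± 0.09 against ASO-Ctr, and both calls held in all 16 alternatives run for each. The log2 fold change in sO-L1 against ASO-Ctr was 0.04 ± 0.09.

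The windows of CHGA and SCG5 are shown beside those of the genes that rose, as the granins with the largest decreases in ASO-L1 against sO-L1. They are chr14:92922900-92923149 and chr15:32641460-32641709, both on the plus strand, with the same capitals.
CHGA: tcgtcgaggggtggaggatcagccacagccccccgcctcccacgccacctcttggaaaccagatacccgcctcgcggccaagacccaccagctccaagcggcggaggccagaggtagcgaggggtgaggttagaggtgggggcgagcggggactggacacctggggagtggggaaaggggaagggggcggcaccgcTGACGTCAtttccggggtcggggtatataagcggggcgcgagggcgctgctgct
SCG5: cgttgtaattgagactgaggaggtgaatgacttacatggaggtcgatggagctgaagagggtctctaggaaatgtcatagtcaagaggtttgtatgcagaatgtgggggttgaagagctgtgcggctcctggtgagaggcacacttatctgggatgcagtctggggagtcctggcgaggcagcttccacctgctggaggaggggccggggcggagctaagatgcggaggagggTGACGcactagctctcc
CHGA, which fell in ASO-L1, has a full CRE like VGF, which rose. It starts 54 bases before the start. SCG5 has a half-site 17 bases before its start. Of the 7 genes with a window in the RefSeq table, CHGA and VGF held the CRE, and these and TAC1, NTS and SCG5 held the half-site. VGF alone held the exact letters TATAAA, on the opposite strand. Variants of the TATA box were not searched, so its absence from the other windows, that of CHGA among them, is not shown. None of the 7 held the AP-1 site TGANTCA, which 6.57% of all windows held. Of the other motifs searched, the RE1 parts GGACAG (17.2% of all windows) and GGACAGNGC (1.83%), letters of the REST site, were in VGF alone, and TCAGCAC (3.55%) and the CEBP-ATF letters TGATGNAA (3.14%) were in none of the 7. CCAAT (32.0%) was in TAC1, VGF and SCG3, and the GC box GGGCGG (42.6%) was in VGF, SCG5 and CHGA.

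CHGB and SCG2, the other classical granins, were not called in any of the 3 comparisons. CHGB, chromogranin B, had 7.17 and 5.70 CPM in ASO-L1, 6.64 and 5.90 CPM in sO-L1 and 5.36 and 4.91 CPM in ASO-Ctr. ASO-L1 and sO-L1 overlapped, and ASO-Ctr was the lowest group. The log2 fold change was 0.03 ± 0.11 in ASO-L1 against sO-L1, 0.30 ± 0.12 in ASO-L1 against ASO-Ctr (adjusted p = 0.0666) and 0.27 ± 0.12 in sO-L1 against ASO-Ctr (adjusted p = 0.312). SCG2, secretogranin II, the precursor of secretoneurin, had 1.27 and 1.71 CPM in ASO-L1, 0.881 and 1.46 CPM in sO-L1 and 1.49 and 1.52 CPM in ASO-Ctr. With 28 to 104 counts per library its log2 fold change was 0.32 ± 0.22 in ASO-L1 against sO-L1, 0.06 ± 0.22 in ASO-L1 against ASO-Ctr and -0.26 ± 0.23 in sO-L1 against ASO-Ctr. A difference of the size seen for SCG5 was not detectable for SCG2 with the same certainty, since its SE was 0.22 on the log2 scale and that of SCG5 was 0.09.

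**Figure D2:**
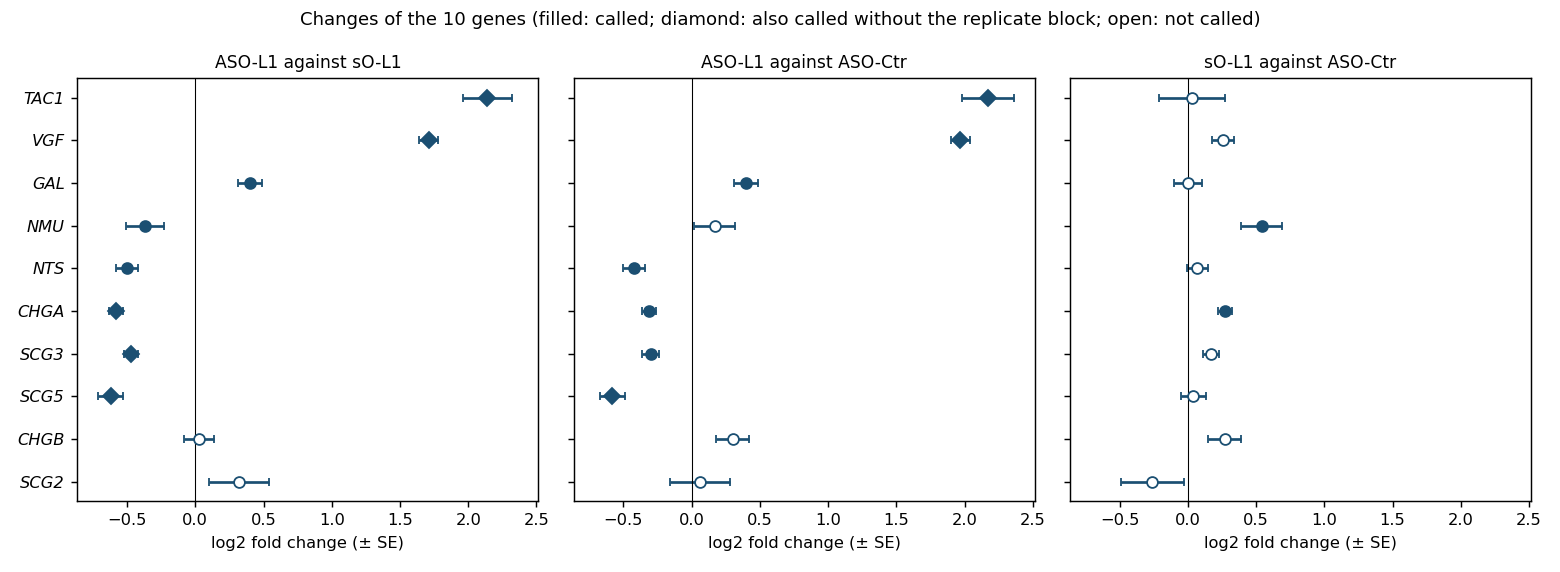
log2 fold change ± SE (x axis) of the 10 genes in the 3 comparisons, positive where the first group named is higher. Filled points were called and open points were not, and diamonds were also called without the replicate block. TAC1 and VGF stand at 2.14 and 1.71 in ASO-L1 against sO-L1, and the lowest point there is SCG5 at -0.62.

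Against ASO-Ctr, the non-targeting oligo, edgeR called 3 of the 10 higher in ASO-L1 (TAC1, VGF and GAL) and 4 lower (NTS, CHGA, SCG3 and SCG5), where 21.5% of all genes were called, 9.88% higher and 11.6% lower. In sO-L1 against ASO-Ctr it called 2 higher (NMU and CHGA) and 0 lower, where 1.72% of all genes were called, 0.658% higher and 1.06% lower, and 5 of the 10 had an unadjusted p under 0.05, as 12.8% of all genes had. Without the replicate block the calls were TAC1, VGF, CHGA, SCG3 and SCG5 in ASO-L1 against sO-L1, where 1.84% of all genes were called, 0.914% higher and 0.924% lower, and TAC1, VGF and SCG5 in ASO-L1 against ASO-Ctr, where 1.95% were, 0.903% higher and 1.05% lower. In sO-L1 against ASO-Ctr none of the 10 was called in that fit, and 2 of them had an unadjusted p under 0.05, as 2.97% of all genes had. The CPM of the groups did not overlap for 8 of the 10 in ASO-L1 against sO-L1, against 47.1% of all genes, for 9 in ASO-L1 against ASO-Ctr, against 48.6%, and for 5 in sO-L1 against ASO-Ctr, against 29.7%.

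The authors' deposited table for ASO-L1 against sO-L1 lists all 10 genes. In the authors' deposited table VGF ranks 4 by p among 16753 genes, with a log2 fold change of 1.71, CHGA ranks 42 with -0.57, and TAC1 ranks 85 with 2.13. The authors' deposited table gives NMU an adjusted p of 0.093. In the authors' deposited log2 table TAC1 has 2.54 and 2.21 in ASO-L1, against -0.00 and 0.46 in sO-L1, and against 0.09 and 0.30 in ASO-Ctr. The 2 ASO-L1 libraries lie closer together after the batch correction than in CPM, while the 2 sO-L1 libraries (1.17 and 1.12 CPM) lie further apart. In ASO-Ctr the order is reversed, as replicate 1 was the higher in CPM (1.22 and 1.01).

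Levels of different genes were compared as CPM per kb of exon, with exon lengths from GENCODE 29. CHGA led in every group, with 35.1 ± 1.14 in ASO-L1, 52.5 ± 0.393 in sO-L1 and 43.6 ± 1.26 in ASO-Ctr (mean ± SD, n = 2). SCG3 ranked 2 in sO-L1 and ASO-Ctr, with 26.0 ± 0.125 and 23.1 ± 0.168. In ASO-L1 rank 2 was held by VGF with 28.7 ± 10.5, a range that overlapped that of CHGA, and SCG3 ranked 3 with 18.7 ± 2.22. VGF ranked 4 in sO-L1, overlapping GAL, and 6 in ASO-Ctr, overlapping SCG5. TAC1 ranked 8 in ASO-L1 with 2.86 ± 1.19, overlapping NMU, and 9 in the other groups with 0.607 ± 0.0209 in sO-L1 and 0.590 ± 0.0807 in ASO-Ctr.

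The summed level of the 10 genes per length was 122 and 108 CPM per kb in ASO-L1, 122 and 121 CPM per kb in sO-L1 and 106 and 105 CPM per kb in ASO-Ctr. Of that sum VGF made up 29.7% and 19.7% in ASO-L1, against 8.10% and 6.05% in the sO-L1 libraries and 7.53% and 5.81% in those of ASO-Ctr. CHGA made up 28.2% and 33.2% in ASO-L1, against 42.9% and 43.8% in the sO-L1 libraries and 40.3% and 42.3% in those of ASO-Ctr. Without VGF the sum was 85.5 and 86.8 CPM per kb in ASO-L1, 112 and 113 CPM per kb in sO-L1 and 98.2 and 99.1 CPM per kb in ASO-Ctr.

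**Figure D3:**
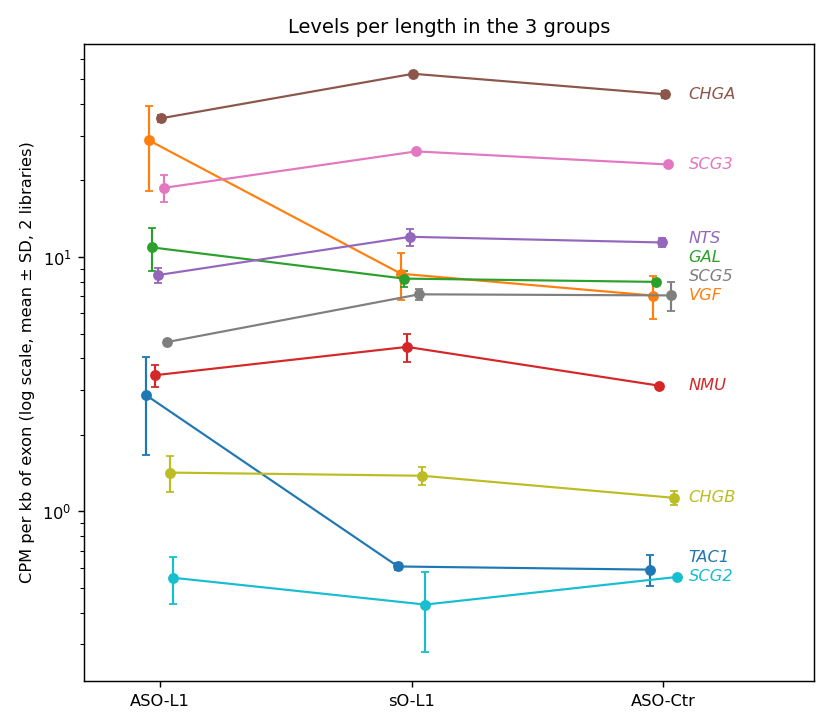
Mean level of each gene in CPM per kb of exon (y axis, log scale) in ASO-L1, sO-L1 and ASO-Ctr, with SD of 2 libraries and lines that join the values of a gene. VGF ranks 2 at 28.7 in ASO-L1, against 8.59 in sO-L1 and 7.05 in ASO-Ctr.

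The lists of related genes below are to be read against the 23.0% of all genes called in ASO-L1 against sO-L1 and the 21.5% called in ASO-L1 against ASO-Ctr. First come the enzymes and helpers that process the precursors. Of 16 such genes tested, 1 was higher and 4 were lower in ASO-L1 than in sO-L1, with a median log2 fold change of -0.07, and 0 were called without the replicate block. The gene higher was PCSK2, the convertase served by 7B2, with 1.05 and 1.30 CPM in ASO-L1, against 0.587 and 0.648 CPM in sO-L1 and 0.478 and 0.933 CPM in ASO-Ctr (0.95 ± 0.28 on the log2 scale against sO-L1, and 0.63 ± 0.28 against ASO-Ctr, not called, adjusted p = 0.101). Those lower were the convertase PCSK5 (-0.62 ± 0.11), the granin-like convertase inhibitor PCSK1N (-0.52 ± 0.17) and, named after their values were seen, FURIN (-0.19) and carboxypeptidase E, CPE (-0.21). Against ASO-Ctr 4 were lower, PCSK5 (-0.73 ± 0.11), PCSK1N (-0.61 ± 0.17), FURIN (-0.19) and PAM (-0.18 ± 0.05), and 1 was higher, the convertase PCSK1 (0.77 ± 0.29), named after its values were seen. PCSK1 had 0.943 and 1.11 CPM in ASO-L1, 0.998 and 1.09 CPM in sO-L1 and 0.584 and 0.627 CPM in ASO-Ctr. In sO-L1 against ASO-Ctr its log2 fold change was 0.79 ± 0.29, of like size but not called (adjusted p = 0.186 with edgeR). PCSK5 was the 1 call in ASO-L1 against ASO-Ctr that held without the replicate block (adjusted p = 0.0378).

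Most receptors for the peptides were scarce. Of 14 receptor genes, 10 could be tested, and in ASO-L1 against sO-L1 1 was higher and 1 lower. SORT1 and SORL1, sorting receptors that bind neurotensin, had 74.6 to 83.2 and 137 to 166 CPM in ASO-L1, 78.4 to 84.7 and 142 to 192 CPM in sO-L1 and 90.2 to 91.2 and 167 to 197 CPM in ASO-Ctr. SORL1 fell by 0.14 ± 0.05 on the log2 scale against sO-L1 and by 0.26 ± 0.05 against ASO-Ctr, and SORT1 fell by 0.20 ± 0.05 against ASO-Ctr, calls that were lost without the replicate block. TACR1, the substance P receptor, had 6 and 3 counts in ASO-L1, 0 and 1 counts in sO-L1 and 0 and 12 counts in ASO-Ctr, too few to test. TACR3, the receptor of neurokinin B, had 7.24 and 9.92 CPM in ASO-L1, 6.08 and 8.59 CPM in sO-L1 and 8.02 and 11.2 CPM in ASO-Ctr. It was lower in sO-L1 than in ASO-Ctr (-0.38 ± 0.10), a call lost without the replicate block. The galanin receptor GALR2 had 0.175 to 0.680 CPM over all libraries and was higher in ASO-L1 than in ASO-Ctr (adjusted p = 0.0416, or 0.216 without the block). The gene higher in ASO-L1 against sO-L1 was the neurotensin receptor NTSR2, named after its values were seen, with 0.285 and 0.259 CPM in ASO-L1 and 0.117 and 0.0486 CPM in sO-L1. Its call (adjusted p = 0.0398) was lost without the replicate block (0.161), and against ASO-Ctr its log2 fold change was 0.83 ± 0.60 (adjusted p = 0.367). NTSR2 passed the filter on low counts only through its ASO-L1 libraries, so this call is a description only.

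Of 62 other precursors of neuropeptides and peptide hormones with an entry, 28 could be tested and 8 had 0 counts in every library. In ASO-L1 against sO-L1, 5 were higher and 2 lower, or 7 of 28 called where 23.0% of all genes were, with a median log2 fold change of 0.32, against -0.00 for all genes tested. Against ASO-Ctr 5 were higher and 1 lower, where 21.5% of all genes were called, and the median was 0.17. Many of the 28 had few counts, so nothing is read from these medians. Named after their values were seen, PDYN (0.48 ± 0.14) and ADM (0.13 ± 0.05) were higher and NUCB2 (-0.17 ± 0.06) lower in ASO-L1 than in sO-L1, calls that were lost without the replicate block (adjusted p = 0.254, 0.414 and 0.408). In ASO-L1 against ASO-Ctr, PDYN had a log2 fold change of 0.09 (adjusted p = 0.727) and NUCB2 one of 0.05 (0.62), neither of them called. CALCA, the precursor of calcitonin and calcitonin gene-related peptide, had 47 and 28 counts in ASO-L1, against 1 and 3 counts in sO-L1 and 2 and 7 counts in ASO-Ctr. Per total counts that is 17.2 times the sO-L1 level (exact 95% interval 6.46 to 64.9, counting error only) and 6.89 times the ASO-Ctr level (3.44 to 15.7). ADM2, adrenomedullin 2, had 28.3 and 25.6 CPM in ASO-L1, against 13.9 and 16.5 CPM in sO-L1 and 13.3 and 14.9 CPM in ASO-Ctr (0.81 ± 0.08 and 0.91 ± 0.08 on the log2 scale). The groups did not overlap for either gene, and both calls held without the replicate block. CALCA passed the filter on low counts only through its ASO-L1 libraries, so its calls are a description only. APLN, the precursor of apelin, rose by 0.69 ± 0.11 against sO-L1 and by 0.70 ± 0.11 against ASO-Ctr. TAC3, the tachykinin precursor of neurokinin B, went the other way from TAC1, with 10.7 and 11.0 CPM in ASO-L1, against 14.7 and 13.3 CPM in sO-L1 and 14.4 and 13.4 CPM in ASO-Ctr (-0.36 ± 0.09 and -0.35 ± 0.09). The APLN and TAC3 calls were lost without the replicate block (adjusted p = 0.0573 and 0.125 against sO-L1).

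Of 23 genes of granule release tested, 3 were higher and 5 lower in ASO-L1 than in sO-L1, 3 higher and 6 lower in ASO-L1 than in ASO-Ctr, and 0 were called in either without the replicate block. Over all genes 10.3% were called higher and 12.7% lower against sO-L1, and 9.88% and 11.6% against ASO-Ctr, so nothing is read from these counts. CADPS2, which primes granules for release, fell by 0.44 ± 0.08 on the log2 scale against sO-L1 and by 0.38 ± 0.08 against ASO-Ctr. The calcium sensor SYT1 fell by 0.31 ± 0.06 and by 0.45 ± 0.06. SYT4 was higher than in ASO-Ctr in both L1 oligo groups, with 3.93 and 4.58 CPM in ASO-L1, 2.99 and 4.26 CPM in sO-L1 and 1.75 and 2.70 CPM in ASO-Ctr (0.89 ± 0.15 and 0.67 ± 0.16 on the log2 scale). Both SYT4 calls, that of sO-L1 included, were lost without the replicate block.

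**Figure D4:**
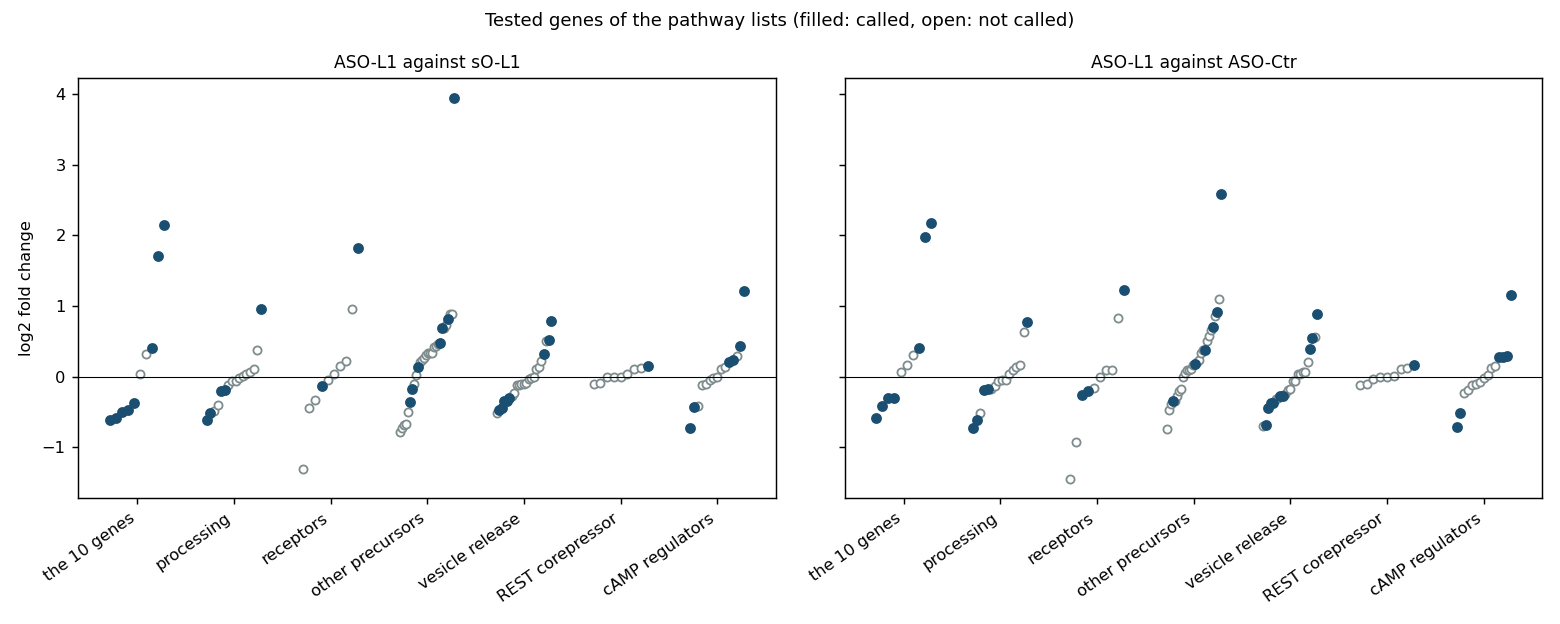
log2 fold change (y axis) of the 10 genes and of every tested gene in 6 pathway lists, in ASO-L1 against sO-L1 and in ASO-L1 against ASO-Ctr. Filled points were called and open points were not. The highest filled point of the other precursors is CALCA, whose fitted value rests on 4 counts in sO-L1 and 9 in ASO-Ctr.

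Regulators known from other cells to act on these genes were listed as well. REST had 92.4 and 98.3 CPM in ASO-L1, 86.0 and 99.2 CPM in sO-L1 and 98.1 and 96.9 CPM in ASO-Ctr, so the groups overlapped, and it was not called in any comparison. Of 9 genes of REST and its corepressors, 1 was higher and 0 lower in ASO-L1 than in sO-L1, the called gene being RCOR2 (0.15 ± 0.05), where 10.3% of all genes were called higher. The RCOR2 call was lost without the replicate block (adjusted p = 0.396). Of 15 cAMP-responsive regulators tested, 4 were higher and 2 lower in ASO-L1 than in sO-L1. ATF3, a stress-induced factor that binds CRE-like sites, had 23.2 and 21.1 CPM in ASO-L1, against 8.84 and 10.1 CPM in sO-L1 and 9.13 and 10.3 CPM in ASO-Ctr (1.21 ± 0.09 and 1.16 ± 0.09 on the log2 scale), and its calls held without the replicate block. ATF1 (0.24 ± 0.06) and NR4A1 (0.43 ± 0.09) also rose against sO-L1, and the phosphodiesterase PDE4B fell (-0.43 ± 0.09), calls that were lost without the block. Their part in the changes of the neuropeptide genes was not tested.

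Markers of neurons, which also express many of these genes, were checked. Their summed level was 385 to 396 CPM in ASO-L1, 377 to 387 CPM in sO-L1 and 370 to 380 CPM in ASO-Ctr, TUBB3 being the highest. Of 13 tested, 4 were higher in ASO-L1 than in sO-L1, STMN2 (0.63 ± 0.13) and NEFL (0.31 ± 0.07) among them, and 1 was lower, SYT1. Without the replicate block 0 of the 13 were called. Of 5 neural crest markers tested 2 were higher in ASO-L1 than in sO-L1, SNAI2 (0.83 ± 0.16) and NGFR (0.62 ± 0.08), and 1 was lower, FOXD3 (-0.23 ± 0.06). Their sum was 51.5 and 52.1 CPM in ASO-L1, 47.1 and 47.4 CPM in sO-L1 and 43.3 and 49.5 CPM in ASO-Ctr. SOX10, the defining factor of the list, had 1.27 and 2.25 CPM in ASO-L1, 1.35 and 1.82 CPM in sO-L1 and 1.22 and 2.11 CPM in ASO-Ctr, and was not called. NGFR alone of the neural crest markers was also called without the replicate block (adjusted p = 0.0205). Of 4 endoderm markers tested, FOXA2 fell in ASO-L1, with 1.95 and 1.61 CPM in ASO-L1, against 3.82 and 3.84 CPM in sO-L1 and 3.66 and 3.16 CPM in ASO-Ctr (-1.13 ± 0.16 and -0.93 ± 0.17 on the log2 scale), and both calls held without the replicate block (adjusted p = 0.0213 and 0.0428). EOMES, at most 0.833 CPM in any library, was called higher in both comparisons (adjusted p = 0.0406 and 0.0119), calls that were lost without it (0.362 and 0.251). The endoderm sum was 5.09 and 3.66 CPM in ASO-L1, 6.96 and 5.43 CPM in sO-L1 and 6.96 and 4.84 CPM in ASO-Ctr. Of 6 mesoderm markers tested, KDR alone was called in ASO-L1 against sO-L1 (0.22 ± 0.05, lost without the block at 0.182), with 115 and 124 CPM in ASO-L1, 100 and 106 CPM in sO-L1 and 120 and 124 CPM in ASO-Ctr, so that sO-L1 was the lowest group. The mesoderm sum was 119 and 128 CPM in ASO-L1, 104 and 110 CPM in sO-L1 and 124 and 128 CPM in ASO-Ctr, and HAND1 was at 0 in all libraries. Of 10 neural progenitor markers 5 could be tested, and 0 were called in ASO-L1 against sO-L1. The sum of the 10 was 350 and 362 CPM in ASO-L1, 345 and 339 CPM in sO-L1 and 325 and 309 CPM in ASO-Ctr. NES held most of it, with 345 and 360 CPM in ASO-L1. NES was called higher in ASO-L1 than in ASO-Ctr (0.17 ± 0.05), a call lost without the replicate block (adjusted p = 0.25). The part of these markers in the changes of the neuropeptide genes was not tested.

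The genes most like TAC1 in pattern were sought by Pearson's correlation of log2 CPM over the 6 libraries. They were ASS1, an enzyme of arginine synthesis (r = 0.999), WARS, a tryptophanyl-tRNA synthetase (0.998), AXIN1, a scaffold of WNT signalling (0.997), QKI, an RNA-binding protein (0.996), and TAGLN2, an actin-binding protein (0.995). Their changes in ASO-L1 against sO-L1 were far smaller than that of TAC1, from 0.12 ± 0.05 for AXIN1 to 0.58 ± 0.06 for TAGLN2 on the log2 scale. Among the genes most like SCG5 were RHOBTB1, COMMD10, FUT8 and AC130352.1 (r = 0.997 each). With 6 libraries in 3 groups such values are common: 339 of 12875 genes had an r over 0.95 with TAC1 and 321 with SCG5.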

How the data were processed

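Poly(A) RNA of 6 libraries was sequenced with a directional kit, per the labels' protocols. Trim Galore 0.4.0, TopHat2 2.0.13, build hg19 and featureCounts of Subread 1.5.0 are named in the submitters' processing notes, and the strand setting is not given in the sources used here. The authors deposited raw counts per gene symbol, with duplicates removed per the file name, which does not say whether reads or gene entries are meant. If duplicate reads were removed, that lowers the counts of abundant genes most. The authors also deposited log2 normalized, batch-corrected values and a table of log2 fold changes with p-values for ASO-L1 against sO-L1, whose direction was settled from the deposited log2 values (r = 0.996 across genes). Its score columns, a moderated t and log odds per the file headers, were not used.

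From the counts, 92 spike-in entries were left out and edgeR 4.0.16 (R 4.3.3) was run with TMM scaling, filterByExpr (minimum count 10, minimum total 15) and the quasi-likelihood test on all 6 libraries, with the replicate number as a block because the authors corrected for batch. P-values were Benjamini-Hochberg adjusted over 19156 genes and called under 0.05. Each SE is the absolute log2 fold change divided by the square root of the test's F. It comes from the fit with the replicate block unless stated. The procedure was tested on simulated data that held a shift shared by same-numbered libraries, so that test cannot judge whether the block suits these libraries. The limit set on false calls was first exceeded there and was then loosened. CPM are TMM-scaled. The log2 CPM for correlations used a prior count of 2. Exon lengths are GENCODE 29 on GRCh38, and promoters are RefSeq on GRCh38.p14, with entries for 7 of the 10 genes. Genes on the opposite strand overlap SCG3 and SCG5. Of these, AC020892.1 (at SCG3) and AC123768.1 (at SCG5) had 0 counts in every library, and AC020892.2 (at SCG3) had no entry among the counts.

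Same-numbered libraries deviated together (correlations 0.191 to 0.278), but with 2 numbers, and labels that do not say what a number marks, pairing is not established. The members, the lists and the naming rule (all 10 members, up to 4 called genes of each list with the smallest p, and the 5 genes most like TAC1 and SCG5) were chosen with earlier results of these data known. Some genes that the rule or the lists hold are not reported here. Alternatives were other scalings, filters, thinning, DESeq2 1.42.0, limma-voom 3.58.1, no replicate block, the 4 libraries compared alone and each library left out. The L1 RNA itself is not analysed here.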

Additional observations from a re-analysis of the deposited data

How the results depend on the processing

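Of the 10 genes, 8 were called in ASO-L1 against sO-L1 and 7 in ASO-L1 against ASO-Ctr, and without the replicate block 5 and 3 were. With each library left out the counts ranged from 6 to 8 and from 5 to 7. In sO-L1 against ASO-Ctr 2 were called, against 1 with DESeq2, which gave an adjusted p for only 3 of them, 1 with limma-voom, 0 without the replicate block, 4 with the 4 libraries compared alone, and 0 to 4 with each library left out. No called gene changed sign. Values that changed sign were of genes not called, and their cause was not tested: CHGB in ASO-L1 against sO-L1 (-0.06 without ASO-L1 replicate 1, -0.01 without sO-L1 replicate 1, up to 0.12 with another library left out), SCG2 in ASO-L1 against ASO-Ctr (-0.0045 without the replicate block, -0.30 without ASO-Ctr replicate 2, up to 0.23), and, in sO-L1 against ASO-Ctr, TAC1 (-0.09 thinned, -0.38 without sO-L1 replicate 2, -0.10 without ASO-Ctr replicate 1, up to 0.30), SCG5 (-0.09 without ASO-Ctr replicate 2, up to 0.13) and GAL (-0.0049 with upper-quartile scaling, -0.0012 with the CPM filter, -0.01 with limma-voom, -0.02 thinned, -0.03 without sO-L1 replicate 2, -0.11 without ASO-Ctr replicate 1, up to 0.21). With 2 libraries a group, and 23 to 69 TAC1 counts in each sO-L1 and ASO-Ctr library, small differences between these groups were not detectable.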
